A study of Homo sapiens with 20 samples.

Results

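Small nucleolar RNA host genes are long noncoding RNA (lncRNA) genes whose introns carry small nucleolar RNAs (snoRNAs) or their relatives of the Cajal body, the scaRNAs. The members were the lncRNA genes of GENCODE release 44 (GRCh38) with a symbol of SNHG and a number, plus GAS5, ZFAS1, DANCR and EPB41L4A-AS1. These are 32 genes, 28 with SNHG symbols and 4 with others, of the 38899 lncRNA and protein-coding genes examined. Their names were the rule, and the set was proposed with earlier results of these data known.

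Chromatin immunoprecipitation followed by sequencing had been done by the authors in PC-3, an established line of prostate cancer cells, with antibodies to the transcription factor c-Myc (MYC) and to RNA polymerase II (POL2). Wild-type cells (WT) were set beside SLK-KO cells, in which SLK, a STE20-like protein kinase, had been knocked out. The labels call the knockout cells PSD10 and do not say whether they are a single clone. Neither genotype carries a treatment in the labels, and both were grown to the same confluence. Each antibody and genotype has 3 libraries, described as biological replicates. No analysis here used the 6 IgG and 2 Input libraries. The study's title names SLK as a co-regulator of c-Myc, and the comparison below asks whether MYC and POL2 were found at different host genes with and without it.

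In a host gene, POL2 makes a long precursor that is spliced. The snoRNAs are trimmed from the excised introns and are bound by core proteins. Box C/D snoRNAs then guide ribose methylation, and box H/ACA snoRNAs guide pseudouridylation, mainly of ribosomal RNA. The spliced exons of several host genes, GAS5 among them, are degraded by nonsense-mediated decay. Many host transcripts start with a run of pyrimidines, as ribosomal protein mRNAs do. MYC, with its partner MAX, binds the E-box CACGTG and is known for driving genes of ribosome production.

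The data are lists of summits, the single base at the top of each called peak, with a score that ranks the summits within a library. For MYC they numbered 365, 201 and 267 in the WT libraries and 1218, 1420 and 988 in those of SLK-KO. For POL2 they numbered 17126, 5047 and 9925 in WT, against 19017, 15436 and 16298 in SLK-KO. Read depth is unknown, so a summit missing from a list may be weak binding or a shallow library, which cannot be told apart here. WT POL2 replicate 2 had the shortest POL2 list by far. Of the epithelial markers, KRT8, KRT18 and KRT19 carried POL2 near a transcription start site (TSS, no more than 1 kb away) in 6 of 6 libraries, EPCAM in 4 and CDH1 in 1. The leukocyte genes PTPRC and CD3E had none. Of the fibroblast genes, COL1A1 had one in 4 libraries and COL1A2 and PDGFRB in none. Of the prostate genes, KLK3 had none in any library, while TMPRSS2 had one in 6.

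SNHG7 was the one host gene with MYC in every SLK-KO and no WT library also when the lists were made equally long, so its promoter is printed in full. It hosts the box H/ACA snoRNAs SNORA17A and SNORA17B and lies on the minus strand of chromosome 9 (GRCh38, 136721366 to 136728184). The sequence is the RefSeq promoter window (GRCh38.p14, chr9:136728135-136728434, minus strand), which runs from 250 bases before to 50 bases after the RefSeq start. Capitals mark its CACGTG, the only one in the window.
SNHG7 promoter: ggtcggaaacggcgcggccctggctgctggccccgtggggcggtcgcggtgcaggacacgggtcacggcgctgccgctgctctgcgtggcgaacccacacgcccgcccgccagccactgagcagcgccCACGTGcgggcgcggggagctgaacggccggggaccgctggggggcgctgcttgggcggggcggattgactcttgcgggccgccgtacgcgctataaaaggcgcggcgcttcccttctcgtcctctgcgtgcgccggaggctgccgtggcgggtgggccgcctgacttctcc

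Motifs near the MYC summits of 6 other host genes are shown for comparison, with 20 bases on each side of the motif and read along the gene's strand. The windows are centred on the motif, and those of SNHG26 and SNHG1 hold none of the gene's MYC summits. SNHG17 and ZFAS1 also had MYC in 3 or more libraries, but no motif was marked for them and they are not shown. The first 4 windows hold CACGTG, in capitals. In the SNHG16 and SNHG1 windows the capitals mark CGCGTG, which is CACGCG on the opposite strand, a close relative of the E-box. In the SNHG25 window they mark CATGTG, another relative.
SNHG15, upstream site (chr7:44986529-44986574, minus): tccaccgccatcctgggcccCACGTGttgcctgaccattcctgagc
SNHG15, downstream site (chr7:44986399-44986444, minus): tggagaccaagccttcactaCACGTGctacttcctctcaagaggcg
SNHG20 (chr17:77088674-77088719, plus): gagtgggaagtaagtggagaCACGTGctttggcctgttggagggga
SNHG26 (chr7:22854298-22854343, plus): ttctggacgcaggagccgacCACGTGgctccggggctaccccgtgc
SNHG16 (chr17:76557764-76557809, plus): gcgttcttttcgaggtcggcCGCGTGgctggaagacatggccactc
SNHG1 (chr11:62855944-62855989, minus): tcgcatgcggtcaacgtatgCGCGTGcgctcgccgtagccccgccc
SNHG25 (chr17:64146383-64146428, plus): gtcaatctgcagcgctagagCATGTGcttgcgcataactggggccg

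Most host genes carried POL2 at a start site, and 17 of 32 carried MYC in some library. A POL2 summit lay within 1 kb of a TSS of 28 of the 32 host genes (87.5%) in at least 1 library, against 36.6% of all genes. In all 6 libraries it did so at 18 (56.2%), against 12.1% of all genes. A MYC summit was found at 17 host genes (53.1%) in at least 1 library, against 6.44% of all genes, and at 4 (12.5%) in all 6 libraries, against 0.308%. More annotated starts give more room for a summit, and they numbered 61 at SNHG17 and 2 at SNHG19. The comparisons here and below were not matched for that number. With the canonical TSS only, 15 hosts had MYC in at least 1 library, but the share over all genes was not taken.

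**Figure D1:**
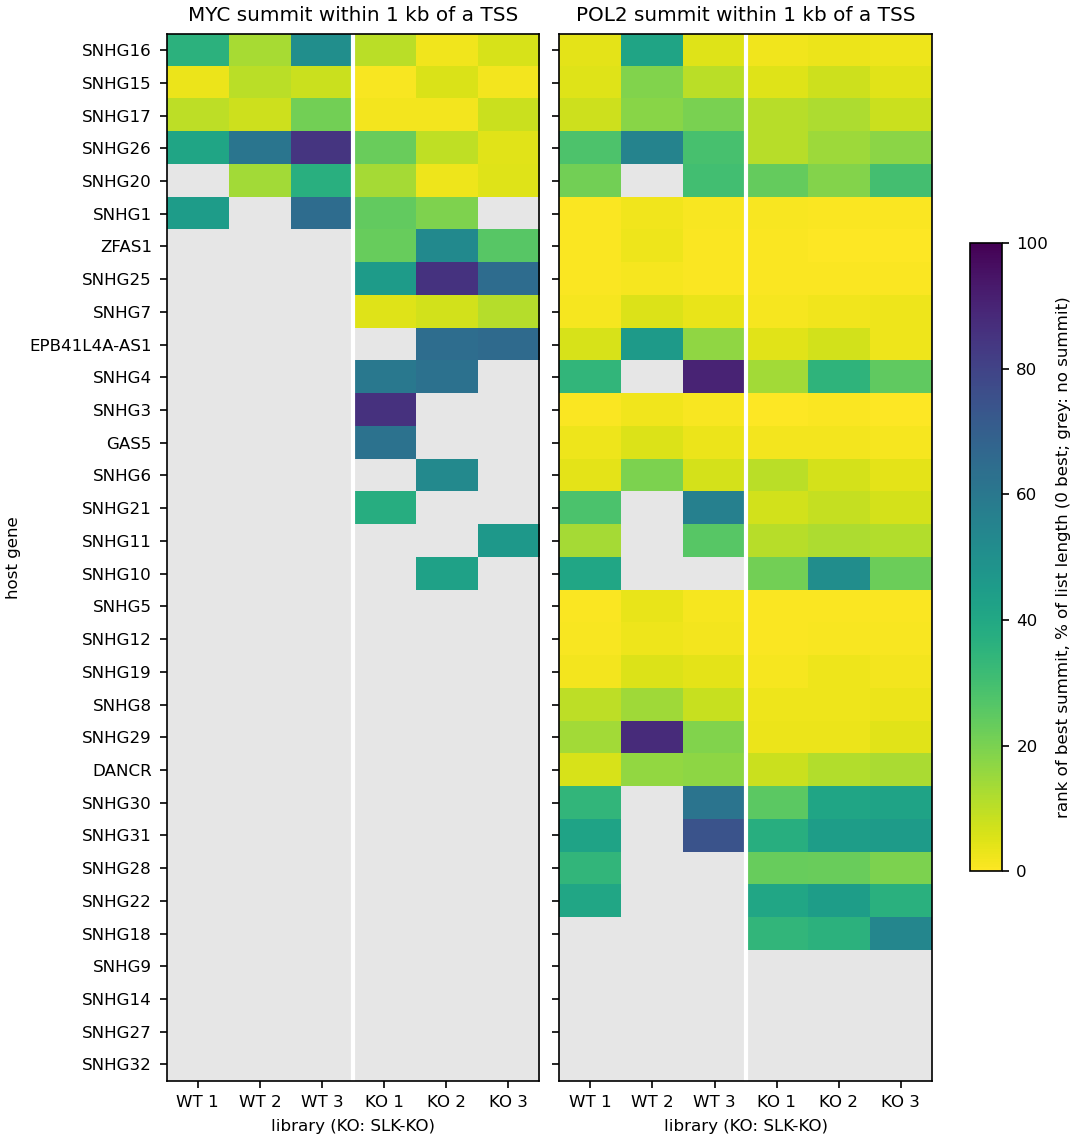
Each row is a host gene and each column a library (WT or SLK-KO, replicates 1 to 3), for MYC on the left and POL2 on the right. Colour gives the rank of the best summit within 1 kb of a TSS as a percentage of that library's list length, 0 being best, and grey means no summit: 17 rows have MYC somewhere, 28 have POL2, and SNHG7, ZFAS1 and SNHG25 have MYC in the 3 SLK-KO columns alone.

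POL2 is more common at genes that are transcribed, so the MYC counts were also set beside lncRNA genes with a POL2 summit in all 6 libraries, of which there are 1102. Among these, 12 of 18 host genes (66.7%) had MYC in at least 1 library, against 27.6% of the 1102. MYC in all 6 libraries was found at 4 of the 18 (22.2%), against 1.18%. The names and counts describe these lists, and no test was run over the members.

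The number of host genes with a MYC summit was 5, 5 and 6 in the WT libraries and 13, 13 and 10 in the SLK-KO libraries. Those are means of 16.7% ± 1.80 and 37.5% ± 5.41 of the host genes (SD over 3 libraries), a difference of 20.8 percentage points, and the ranges do not overlap. Over all genes the share was 0.897% ± 0.253 in WT and 3.65% ± 0.591 in SLK-KO, so it was higher in SLK-KO there too. When each list was reduced to its 201 best summits, the length of the shortest, the counts were 5, 5 and 5 in WT and 5, 6 and 6 in SLK-KO, a difference of 2.08 points. In lists of equal length the counts of the genotypes thus overlapped.

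**Figure D2:**
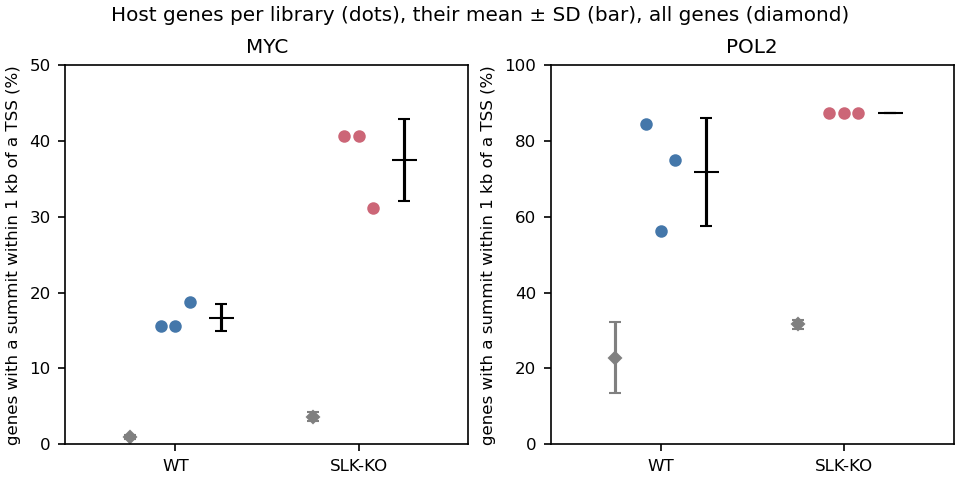
The vertical axis is the percentage of genes with a summit within 1 kb of a TSS, for MYC (left, axis to 50) and POL2 (right, axis to 100), by genotype. Dots are the 3 libraries for the host genes, black bars their mean ± SD and grey diamonds the mean ± SD over all 38899 genes; the MYC dots of the genotypes do not overlap, at 15.6 to 18.8% in WT and 31.2 to 40.6% in SLK-KO.

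For POL2 the host genes with a summit numbered 27, 18 and 24 in WT and 28, 28 and 28 in SLK-KO. These are 71.9% ± 14.3 and 87.5% ± 0 (SD, n = 3 each), a difference of 15.6 points. It was 7.81 points without WT replicate 2, which alone set the low end. In lists of 5047 summits the counts were 21, 18 and 20 in WT and 25, 22 and 24 in SLK-KO, a difference of 12.5 points, and the ranges did not overlap. In the full lists the share over all genes was 22.8% ± 9.42 in WT and 31.6% ± 1.29 in SLK-KO, so its mean was higher in SLK-KO too. At equal length the share over all genes was not taken, so the difference is not read as particular to the hosts. The 28 genes were the same ones in each SLK-KO library, since 28 had POL2 in any library. SNHG18 was the single host gene with POL2 in 3 SLK-KO and 0 WT libraries, against 1.06% of all genes. The reverse was found at 0 host genes.

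MYC was in 3 SLK-KO and 0 WT libraries at 3 host genes, SNHG7, ZFAS1 and SNHG25, or 9.38% of the 32, against 0.573% of all genes. Among lncRNA genes with POL2 in all 6 libraries these were 3 of 18 (16.7%), against 2.45%. The reverse was found at 0 host genes. With lists of 201 summits, SNHG7 alone of the 3 kept this pattern, which 9 genes (0.0231% of all genes) then showed. Single genes could not pass a test in this design. The exact two-sided permutation test of 3 against 3 libraries has 20 relabellings and no p under 0.1, and of 2505 genes with MYC and 14246 with POL2 in at least 1 library, 0 had a Benjamini-Hochberg adjusted p or an unadjusted p under 0.05. The smallest adjusted p was 1.00 for each antibody.

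SNHG7 had MYC summits of rank 59, 99 and 112 in the SLK-KO libraries, where a rank of 1 is the best score in the library. No WT list had one within 1 kb, and the nearest WT MYC summits lay 4058482, 8925168 and 42561589 bp from the canonical TSS. All 3 SLK-KO ranks were better than 201, so they remained in lists of that length. The summits lay 118, 98 and 109 bp upstream of the canonical TSS and 1.50, 21.5 and 10.5 bp from the centre of the CACGTG printed in the promoter. POL2 at SNHG7 had ranks of 216, 260 and 346 in WT and 283, 309 and 408 in SLK-KO, so a POL2 summit was called in every library and the ranks overlapped. Its POL2 summits fell within 11 bp of each other, a median of 45.5 bp past the TSS. The MYC summits lay 134 to 165 bp upstream of the POL2 summits of the same replicate number.

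ZFAS1, the host of SNORD12, SNORD12B and SNORD12C and antisense to the start of ZNFX1, had MYC ranks of 283, 745 and 258 in the SLK-KO libraries and none in WT. Each of these ranks is worse than 201, and with equal lists ZFAS1 had no MYC in either genotype. The summits lay 375 to 493 bp upstream of the canonical ZFAS1 TSS but 4 to 29 bp upstream of another annotated ZFAS1 start, and 84 to 180 bp from a TSS of ZNFX1. A ZFAS1 start was the nearer one in 3 of 3 libraries, and which gene the peak serves was not tested. POL2 at ZFAS1 was among the best of all summits, with ranks of 88, 135 and 72 in WT and 95, 52 and 49 in SLK-KO. The POL2 ranks of the genotypes overlapped.

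SNHG25, a compact host of SNORD104 and SNORA50C, had MYC ranks of 550, 1212 and 638 in SLK-KO and none in WT. These ranks are worse than the length of every WT list. The summits lay 416 to 471 bp past the TSS, within an exon of the canonical transcript, and 349 to 407 bp downstream of the POL2 summits. CATGTG was within 100 bp in 3 of 3 libraries and CACGTG in 0, although 2 copies of CACGTG lie within 250 bp of its canonical TSS. POL2 ranked 79, 74 and 74 in WT and 94, 85 and 109 in SLK-KO, so every WT rank was better than every SLK-KO rank, in lists of unequal length.

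**Figure D3:**
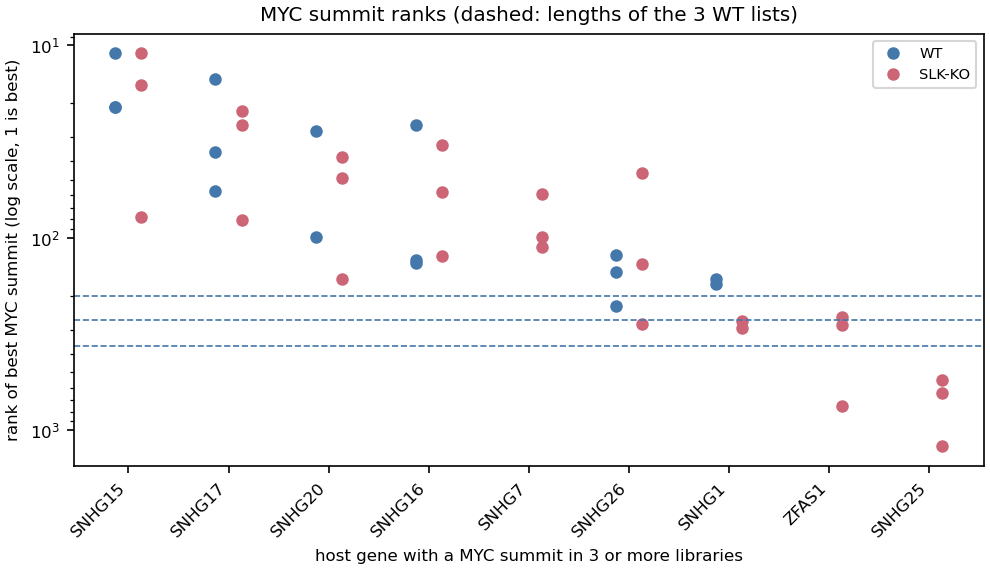
The vertical axis is the rank of the best MYC summit on a log scale, with 1 at the top, for the 9 host genes with MYC in 3 or more libraries. Points are single WT (blue) and SLK-KO (red) libraries and dashed lines the lengths of the WT lists (201, 267 and 365): SNHG15 and SNHG17 stay near the top in both genotypes, SNHG7 lies above all dashed lines, and the SNHG25 points lie below them.

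SNHG15, SNHG16, SNHG17 and SNHG26 had MYC in all 6 libraries. SNHG15, the host of SNORA9, was the best ranked, at 11, 21 and 21 in WT and 11, 78 and 16 in SLK-KO. Its summits lay 392 to 522 bp past the canonical TSS and 1 to 121 bp past the nearest annotated TSS. They fell between or beside the 2 E-boxes printed, and every one of the 6 summits had at least 1 of them within 100 bp. POL2 at SNHG15 ranked 817, 959 and 1031 in WT and 942, 1158 and 749 in SLK-KO, and both sets of ranks overlap between genotypes.

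SNHG17, which hosts SNORA71A and its relatives, had MYC ranks of 36, 15 and 57 in WT and 22, 26 and 81 in SLK-KO. It was second among the hosts by median rank, yet no CACGTG lay within 100 bp of any of its 6 summits, and CACGCG lay there in 1. Its POL2 ranks were 1328, 893 and 2012 in WT and 2055, 1912 and 1320 in SLK-KO. MYC summits were spread over 131 bp, 16 to 191 bp downstream of POL2.

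SNHG16, the host of SNORD1A, SNORD1B and SNORD1C, had MYC ranks of 131, 26 and 135 in WT and 125, 33 and 58 in SLK-KO. Here the 6 MYC summits fell within 20 bp and stood between 29 bp upstream and 22 bp downstream of the POL2 summit, so both factors peaked at one place just past the TSS. CACGCG was within 100 bp in 6 of 6 libraries and CACGTG in 0. POL2 ranked 681, 2095 and 498 in WT and 392, 456 and 414 in SLK-KO. The SLK-KO ranks do not overlap those of WT, but the lists differ in length and no change is read from them.

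SNHG26, the host of SNORD93, had lower placed MYC summits, with ranks of 150, 123 and 226 in WT and 280, 136 and 46 in SLK-KO. With equal lists it kept MYC in 2 libraries of each genotype. Its E-box lay 49.5 to 92.5 bp from the summits. The POL2 summit chosen as best moved over 721 bp between libraries, the widest spread of any host, with ranks from 2076 to 4799.

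SNHG20 and SNHG1 had MYC in both genotypes but not in every library. SNHG20, the host of SCARNA16, was missing in WT replicate 1, and had ranks of 28 and 99 in the other WT libraries and 163, 38 and 49 in SLK-KO. Its MYC summits lay 1973 to 2017 bp past the canonical SNHG20 TSS, at other annotated SNHG20 starts and 16 to 60 bp from a TSS of SEC14L1, a coding gene on the same strand. The E-box printed for SNHG20 lay 0.5 to 36.5 bp from the 5 summits. SNHG1, the host of SNORD22, SNORD25 and relatives, had ranks of 164 and 173 in WT replicates 1 and 3 and 293 and 272 in SLK-KO replicates 1 and 2. With lists of 201 summits, SNHG1 kept its 2 WT libraries and no SLK-KO library, the opposite order to SNHG7. Its MYC summits were 8 to 45 bp from a TSS of SLC3A2, nearer than any SNHG1 start in 4 of 4 libraries.

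The other 8 host genes with MYC had it in SLK-KO libraries alone and in 1 or 2 of them. SNHG4 (host of SNORA74A) had ranks of 732 and 887, at 0 to 4 bp from a TSS of MATR3. EPB41L4A-AS1, the host of SNORA13, had 914 and 645. GAS5, the growth arrest-specific host that carries 11 snoRNAs in RefSeq, had a single summit of rank 757, in SLK-KO replicate 1. Single summits were also found at SNHG3 (rank 1042), SNHG10 (608), SNHG11 (459) and SNHG21 (459), and at SNHG6 (751). The summits of SNHG3, SNHG4 and SNHG10 and 1 of the 2 of EPB41L4A-AS1 had CACGTG within 100 bp, 1.50 bp away at SNHG3. All 10 of these ranks are worse than the longest WT list, which held 365 summits. DANCR, the host of SNORA26, had no MYC summit in any library, nor did SNHG5, SNHG8, SNHG9, SNHG12, SNHG14, SNHG18, SNHG19, SNHG22 or SNHG27 to SNHG32.

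POL2 ranks put several host genes near the top of the lists. Among the 28 with POL2, the median rank was 7.54% of the list length, against 38.3% for 3453 other lncRNA genes and 35.5% for 10765 protein-coding genes with POL2. Of the 28 hosts, 10 (35.7%) lay in the best 5%, against 6.26% and 6.17%. Where POL2 was in all 6 libraries, the medians were 2.86% for 18 hosts, 13.2% for 1084 other lncRNA genes and 14.5% for 3615 protein-coding genes.

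The best POL2 ranks were those of SNHG3, the host of SNORA73A and SNORA73B, at 72, 101 and 78 in WT and 46, 69 and 44 in SLK-KO. RCC1 starts at the same base as SNHG3 in the annotation, and an RCC1 start was nearer to the summit than any SNHG3 start in 6 of 6 libraries (6 to 21 bp). The summits cannot be assigned to one of the genes. Every SLK-KO rank of SNHG3 was better than every WT rank, in lists of unequal length. SNHG1 followed ZFAS1 and SNHG25, with 116, 116 and 105 in WT and 188, 112 and 100 in SLK-KO. SNHG5 (SNORD50B) had 130, 171 and 120 in WT and 125, 91 and 68 in SLK-KO. SNHG12 (SNORA16A, SNORA44, SNORA61 and SNORD99) had 196, 138 and 167 in WT and 145, 123 and 169 in SLK-KO. SNHG1, SNHG5 and SNHG12 had overlapping ranks in WT and SLK-KO.

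GAS5 ranked 434, 260 and 306 in WT and 342, 256 and 240 in SLK-KO for POL2, and SNHG19 (SNORD60) 284, 260 and 415 in WT and 243, 374 and 277 in SLK-KO. SNHG8 (SNORA24) ranked 1715, 724 and 842 in WT and 466, 402 and 456 in SLK-KO. SNHG29 (SNORD49A, SNORD49B and SNORD65) ranked 2404, 4414 and 1861 in WT and 573, 459 and 760 in SLK-KO. For SNHG8 and SNHG29 every SLK-KO rank was better than every WT rank, in lists of unequal length. Both genes had POL2 in all 6 libraries at equal length too. How many of all genes have ranks that separate by genotype was not counted, for these or for the other hosts. No change in binding is read from ranks. DANCR ranked 1031, 828 and 1667 in WT and 1554, 1758 and 2092 in SLK-KO. EPB41L4A-AS1 ranked 1008, 2294 and 1662 in WT and 842, 1060 and 426 in SLK-KO. SNHG6 (SNORD87) ranked 703, 993 and 651 in WT and 1993, 973 and 666 in SLK-KO. The ranks of DANCR, EPB41L4A-AS1 and SNHG6 overlapped.

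Host genes with POL2 in some libraries only were SNHG4, SNHG10, SNHG11, SNHG18, SNHG20, SNHG21, SNHG22, SNHG28, SNHG30 and SNHG31. All 10 lacked it in WT replicate 2, the shortest list. SNHG21, the host of SCARNA15, ranked 4879 and 5605 in WT replicates 1 and 3 and 1269, 1335 and 1061 in SLK-KO. SNHG11 (SNORA60) ranked 2274 and 2591 in the same WT libraries and 2011, 1912 and 1891 in SLK-KO, and SNHG20 ranked 3632 and 3009 there and 4470, 2858 and 4834 in SLK-KO. SNHG4 ranked 5820 and 8935 in those WT libraries and 2599, 5389 and 3979 in SLK-KO. SNHG10 ranked 6987 in WT replicate 1 alone and 4054, 7884 and 3647 in SLK-KO. The SLK-KO ranks of SNHG21, SNHG11 and SNHG4 were all better than their WT ranks, and those of SNHG20 and SNHG10 were not. SNHG22, SNHG30 and SNHG31 ranked between 4767 and 7803 wherever they had POL2. SNHG18, the host of SNORD123, had POL2 ranks of 6457, 5547 and 8798 in SLK-KO and none in WT. Those summits lay 19 to 51 bp from a TSS of SEMA5A and upstream of SNHG18, and with lists of 5047 summits SNHG18 had none in either genotype. SNHG28 had 5820 in WT replicate 1 and 4458, 3517 and 3200 in SLK-KO, and it had POL2 in 0 WT and 3 SLK-KO libraries at equal length. Without WT replicate 1, 4 host genes had POL2 in all SLK-KO and no remaining WT library, in place of 1. The share over all genes was not taken at equal length or without that library. Neither pattern is therefore read as a result about the hosts.

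POL2 was found at none of the starts of SNHG9, SNHG14, SNHG27 and SNHG32. SNHG14 hosts the SNORD115 and SNORD116 clusters of the imprinted Prader-Willi region, which are mainly active in neurons, and 84 small RNA genes are annotated in it. No POL2 summit of any library fell in the 482304 bp around its start. The stretch around SNHG27 measured 4055842 bp and held no coding gene. SNHG9, the host of SNORA78 beside RPS2, lay in a stretch of 199994 bp without a POL2 summit that held 14 protein-coding genes. SNHG32 (SNORD48 and SNORD52) lay in a stretch of 5127724 bp on chromosome 6, from 28443437 to 33571162, with 183 protein-coding genes and no POL2 summit. That stretch includes the major histocompatibility complex. Of 40 segments tested around the SNHG32 start, 38 and 39 were also found on 2 alternative sequences of the region, where no summit lay within 1 kb of the copied start. Whether reads of these genes were lost for that reason was not tested.

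POL2 summits stood at a narrow place at most host genes. Among the 18 with POL2 in all 6 libraries the median position was 72.8 bp past the canonical TSS, and 14 of them lay 0 to 100 bp past it. The same was so for 17.3% of 1084 other lncRNA genes and 50.1% of 3615 protein-coding genes. The median spread over libraries was 29.0 bp at the hosts, 124 bp at the other lncRNA genes and 118 bp at protein-coding genes. SNHG25, SNHG19, SNHG7 and GAS5 had the narrowest spreads, of 8, 10, 11 and 11 bp. The widest was 721 bp, at SNHG26. SNHG12 lay furthest from its canonical TSS, with POL2 a median of 1148 bp past it and 4.00 bp upstream of another annotated start. SNHG26, EPB41L4A-AS1 and SNHG15 also lay beyond 100 bp, at medians of 475, 400 and 368 bp past the canonical TSS.

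**Figure D4:**
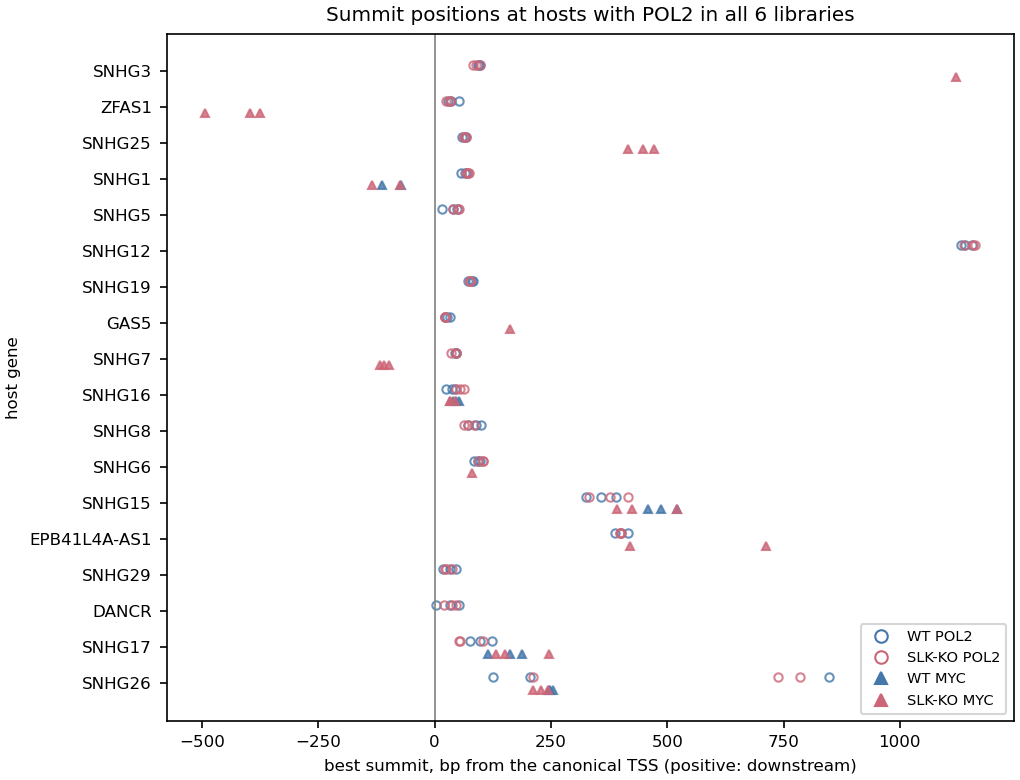
The horizontal axis is the position of the best summit in bp from the canonical TSS (positive is downstream) for the 18 host genes with POL2 in all 6 libraries, ordered by POL2 rank. Open circles are POL2 and triangles MYC, blue for WT and red for SLK-KO: 14 genes have their POL2 median within 100 bp past the TSS, while MYC lies upstream at SNHG1, SNHG7 and ZFAS1 and downstream at SNHG15, SNHG25 and SNHG17.

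CACGTG within 100 bp was counted at each MYC summit of a host gene. The motif reads the same on both strands, and its relatives were searched on both. In WT it was present at 2 of 5, 3 of 5 and 3 of 6 summits, and in SLK-KO at 6 of 13, 8 of 14 and 4 of 10. The Wilson 95% intervals are wide, from 11.8 to 76.9% for WT replicate 1 and from 32.6 to 78.6% for SLK-KO replicate 2, and they cover counting error only. The WT mean was 50.0% ± 10.0 and the SLK-KO mean 47.8% ± 8.68 (SD, n = 3 each). Other MYC summits of the same libraries had it in 43.0% ± 2.19 and 30.2% ± 0.895, and POL2 summits at the host genes in 10.0% ± 5.09 and 6.70% ± 1.42. The other MYC summits were taken at any distance from a TSS, unlike those of the hosts. The genotypes did not differ beyond the spread between libraries at the hosts.

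The relatives of the E-box were counted after the summits had been seen. CACGCG was near 31.1% ± 10.2 of the hosts' WT summits and 26.3% ± 8.33 of their SLK-KO summits, within the same 100 bp, close to 33.5% and 28.7% at other MYC summits. CATGTG was at 0% and 10.8% ± 4.18, against 18.6% and 18.2%. A POL2 summit of the same replicate number was no more than 250 bp away at 86.7% ± 23.1 of the hosts' MYC summits in WT libraries and 65.3% ± 4.32 in SLK-KO libraries (SD, n = 3 each). By library that was 5 of 5, 3 of 5 and 6 of 6 in WT and 8 of 13, 9 of 14 and 7 of 10 in SLK-KO, so the ranges overlap. At other MYC summits the shares were 46.7% ± 7.83 and 52.3% ± 1.61. Those summits were taken at any distance from a TSS, while the hosts' summits lay within 1 kb of one. The sets are thus unlike.

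In the genome sequence, CACGTG lay within 250 bp of the canonical TSS of 8 of 32 host genes (25%), against 8.14% of other lncRNA genes and 11% of protein-coding genes. In the shorter RefSeq promoter windows, 28 hosts were matched by symbol and 2 of them (7.14%), SNHG7 and SNHG30, held it, against 7.26% of 35116 windows. SNHG30 had no MYC summit. Both counts depend on the window and describe letters, not binding.

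A start like that of ribosomal protein mRNAs was looked for as a C followed by at least 4 pyrimidines, beginning within 5 bp of the canonical TSS. It was present at 9 of 32 hosts (28.1%), against 19% of other lncRNA genes and 21.9% of protein-coding genes. The count depends on the 5 bp limit, since a run in the SNHG16 window printed above begins just outside it. Taken at any annotated TSS, most hosts had such a start, but that share was not taken over other genes. The 9 were SNHG7, SNHG8, SNHG12, SNHG17, SNHG25, SNHG29, DANCR, GAS5 and ZFAS1, all with POL2 in 6 of 6 libraries. The starts of 4 are shown, as 30 bases with the pyrimidine run in capitals, being those with the longest runs.
GAS5 (chr1:173867970-173867999, minus): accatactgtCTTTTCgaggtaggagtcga
SNHG25 (chr17:64145927-64145956, plus): gctggtctgCTCCTTTaaaagaacgccatc
SNHG29 (chr17:16439027-16439056, plus): aaggtgtgacCTTTTCattcccgttgttat
DANCR (chr4:52712491-52712520, plus): gcaggtcgcaggCCTCTTTgtcagctggag

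Several host starts lie beside a coding gene. A coding TSS was within 1 kb of the summit at 13 of 28 hosts with POL2 and at 6 of 17 with MYC. It was nearer than any start of the host in most libraries at 4 hosts for POL2 (SNHG3 with RCC1, SNHG10 with GLRX5, SNHG18 with SEMA5A and SNHG31 with BARD1) and at 1 for MYC (SNHG1 with SLC3A2). Summits of SNHG7, SNHG15, SNHG16, SNHG17, SNHG25 and SNHG26 had no coding TSS within 1 kb.

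In gene bodies, taken from 1 kb past the most upstream TSS to the gene's end, 29 hosts had a body, 1054 kb in all. POL2 summits there numbered 34, 5 and 13 in WT and 34, 24 and 30 in SLK-KO, or 17.3 ± 15 and 29.3 ± 5.03 (SD, n = 3 each), and the ranges overlap. At equal list length the difference changed sign, to -2.67 summits in place of 12. Some of these summits lie at further annotated starts inside the gene, as at SNHG12. Counting those more than 1 kb from every annotated start, a count added after the data were seen, left 27, 3 and 9 in WT and 26, 14 and 22 in SLK-KO, a difference of 7.67, in 17 hosts. DANCR had 1 of these in every library, while SNHG12 had 1 in SLK-KO replicate 1 alone. ZFAS1 had 2, 0 and 4 in WT and 0, 1 and 2 in SLK-KO, and SNHG16 had 6, 0 and 2 in WT and 4, 3 and 7 in SLK-KO. In bodies, 0 MYC summits of any library were more than 1 kb from every start of the host. Those of SNHG20 are the site beside the SEC14L1 start described above.

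The proteins that work with the snoRNAs were set beside their hosts. Of 8 core box C/D and H/ACA proteins, 5 (62.5%) had MYC in at least 1 library, against 6.44% of all genes, and 3 had it in 3 SLK-KO and 0 WT libraries, against 0.573%. These were NOP56, a box C/D core protein, at ranks 746, 746 and 207, the pseudouridine synthase DKC1 at 317, 53 and 112, and the H/ACA core protein NHP2 at 1074, 753 and 421. Every rank of NOP56 and NHP2, and the 317 of DKC1, is worse than 201. None of these genes therefore keeps the pattern in lists of 201 summits. NOP58, the partner of NOP56, had rank 218 in WT replicate 3 and 557, 436 and 387 in SLK-KO. POL2 was at 6 of the 8, and FBL and NOP10 had no summit of either antibody.

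Among 12 assembly factors, 3 (25%) had MYC and 10 had POL2, against 6.44% and 36.6% of all genes. RUVBL1, an ATPase of the assembly complex, had MYC ranks of 557, 1095 and 556 in SLK-KO, each worse than 201, and none in WT. NOLC1, a chaperone of snoRNPs, had rank 137 in WT replicate 1 and 232, 420 and 556 in SLK-KO. Of 10 nonsense-mediated decay factors, 10 had POL2 in at least 1 library and 0 had MYC, which at 6.44% of all genes is a number that says little about so short a list. Protein-coding hosts of small RNAs numbered 275. MYC was at 75 of them (27.3%) in at least 1 library and at 9 (3.27%) in all 6, against 6.44% and 0.308% of all genes. Among the 9 were the nucleolin gene NCL, ODC1 and GNL3. PPAN and PPAN-P2RY11, counted apart among the 9, had the same ranks in every library. Of the 275, 10 had MYC in 3 SLK-KO and 0 WT libraries, a pattern shown by 0.573% of all genes. This count was not taken in lists of equal length. Of 59 other lncRNA hosts, 4 (6.78%) had MYC and 20 (33.9%) POL2 in at least 1 library. These are near the shares of all genes (6.44% and 36.6%) and above those of all lncRNA genes (3.02% and 18.5%).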

How the data were processed

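Per the labels, the authors ran nf-core/chipseq on paired-end reads of 50 bp with GRCh38.p14 as the genome, and the submitters' processing notes name BWA 0.7.18-r1243 and MACS3 3.0.1. The 12 deposited lists hold 1-bp summits called per library with a score, read as −log10 of the q-value because the lowest score of each list was at least 1.30, and used for ranking within a list alone. The control library and caller options are not given in the sources used here. Scores are the authors' own values.

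A gene had a summit when one lay within 1 kb of any of its TSSs in GENCODE release 44. A rank is 1 plus the number of summits with a higher score. Signed distances follow the direction of transcription. Genotypes were compared over libraries as mean ± SD, and genes by exact two-sided permutation with Benjamini-Hochberg adjustment over all genes with a summit, tested on simulated data first. Same-numbered libraries did not deviate together, so no pairing was used. Alternatives covered windows, score minimum, list length, motif, distance and leaving out each library. The members and lists were chosen with earlier results of these data known. Named with values are members with MYC in at least 1 library, the 4 members without an SNHG symbol and those differing 3 to 0 between genotypes, and other members by their POL2 ranks. The tools were samtools 1.23.1 and Python 3.11.15 with matplotlib 3.10.9, numpy 2.4.6, pandas 2.3.3, pysam 0.24.0 and scipy 1.17.1. Some marker genes checked are not reported here.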

Additional observations from a re-analysis of the deposited data

How the results depend on the processing

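The MYC difference of 20.8 points between genotypes was 14.6 with a score of at least 5 and 2.08 with equal list lengths, and 19.3 to 24 when a library was left out. At equal length, 7 hosts in place of 17 had MYC in at least 1 library, and 1 in place of 3 had it in 3 SLK-KO and 0 WT libraries. The POL2 difference of 15.6 points was 12.5 with equal list lengths and 7.81 to 21.9 with a library left out. The number of hosts with POL2 in all SLK-KO and 0 WT libraries was 1 to 4, the 4 without WT replicate 1. No share over all genes was taken for these alternative POL2 settings. POL2 in gene bodies went from 12 to -2.67 at equal length, was 7.67 for summits more than 1 kb from every start, a setting added after seeing the data, and was 5.83 to 20.3 with a library left out. The cause was not tested.

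The share of MYC summits with CACGTG, 48.9% over 6 libraries, was 28.6% within 50 bp, 60.1% within 250 bp and 64.2% for any CANNTG. With CACGCG and CATGTG in its place, both chosen after seeing the data, it was 28.7% and 5.42%. MYC summits with POL2 made up 76.0% at 250 bp, 44% at 100 bp and 95.4% at 1 kb. The median distance to the nearest TSS was 20.5 bp for MYC and 24.5 bp for POL2, and 163 and 66.8 bp from the canonical TSS. With a library left out it was 6 to 27.0 bp for MYC, lowest without SLK-KO replicate 2, and 15.8 to 23.5 bp for POL2.

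With a replicate block, the mean paired differences are 20.8 and 15.6 points, equal to the unpaired ones by construction, and sign flips could call 0 genes because their smallest possible p is 0.25, so the block says nothing about stability. Correlations of same-numbered libraries' deviations were 0.0222, 0.0467 and -0.0232 for MYC and 0.0412, -0.00902 and -0.0164 for POL2. The following counts leave aside the block and the test of single genes, which could call none. Of the further alternatives, 53 kept their result within the spread between libraries or 1.5 times the count. Another 13 moved beyond that limit and 1 changed sign. Of the settings that left out a library, 86 kept their result and 4 did not. At equal list length, 11 of the hosts examined in this way lost their difference between genotypes. For MYC they were EPB41L4A-AS1, GAS5, SNHG3, SNHG4, SNHG6, SNHG10, SNHG11, SNHG21, SNHG25 and ZFAS1. For POL2 only SNHG18 was examined, and it lost its difference. SNHG22 and SNHG31, which were not in that count, also had no POL2 in either genotype at equal length. The SNHG3 difference was also 0 with a 500 bp window, the canonical TSS or a score of at least 5. The unknown read depth limits every absence of a summit.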
